A study of Homo sapiens with 6 samples.

Results

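Of 48863 gene names in the deposited table, 9 were followed here: INPP5D, PIK3CD, PIK3R1, PIK3IP1, AKT1, AKT2, SGK1, PDPK1 and PHLPP1. They were picked by name as genes of the PI3K and AKT pathway that lies upstream of FOXO transcription factors. Each had 1 row of its own in the table, shared with no other gene. RNA sequencing covered 6 libraries. Their labels name the cell line U-937, which came from a histiocytic lymphoma and is widely used as a monocyte model, and call the cells acute myeloid leukemia cells. Of the 6 libraries, 3 came from FOXO3A knock-out cells made with small guide RNAs, and 3 from WT control cells. FOXO3A is an older name of FOXO3. The same medium and serum are given for all 6. The sources used here give neither the guide sequences nor whether the knockout cells were 1 clone or a pool. Separate cultures are not mentioned for the replicates, and the p-values therefore reflect the spread among these 6 libraries alone, which may be technical.

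PI3K enzymes of class I phosphorylate a membrane lipid to phosphatidylinositol trisphosphate, which draws AKT and its activating kinase PDK1 to the membrane. AKT and the related kinase SGK1 then phosphorylate FOXO proteins, which leave the nucleus and stop activating their target genes. Lipid phosphatases remove the signal, and in lymphocytes the delta isoform of PI3K is the form known for antigen receptor and cytokine signalling. All of these steps act on lipids and proteins, whereas the values given here are mRNA levels.

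Levels are in FPKM, a read measure corrected for transcript length and for sequencing depth, so that genes can be compared with each other. The depth read from the steps between low values was 4.26 to 4.79 gigabases of aligned sequence in the knockout libraries and 4.37 to 5.71 in the control libraries. FOXO3 was at 3.93, 4.13 and 3.45 FPKM in the knockout libraries and at 4.22, 3.63 and 4.27 FPKM in the control libraries (limma adjusted p = 0.730). Since this row covers the whole gene and not the edited site, it leaves the knockout labels untested, and "knockout" below means the libraries so labelled. Of 12 T cell markers, 11 had a mean of at least 1 FPKM, with summed levels of 694 to 753 FPKM in knockout and 616 to 697 FPKM in control libraries. Past the threshold of the test given below, 2 of the 11 (CD2 and TRAT1) rose, where 1.21% of all tested names did. The marker below 1 FPKM, CD4, averaged 0.175 FPKM in knockout and 0.527 FPKM in control libraries, with every knockout library below every control. Monocyte and macrophage markers numbered 11 in rows of their own, and 10 of them were below a mean of 1 FPKM, with summed levels of 2.61 to 3.17 FPKM in knockout and 2.20 to 2.79 FPKM in control libraries. CSF1R, a receptor of monocytes and macrophages, was at 0.0102 FPKM or less in every library. CD14, another marker of this list, was at 0.121 to 0.298 FPKM in knockout and 0.0570 to 0.0954 FPKM in control libraries. CD68, a macrophage marker whose row also names other genes, was not in these sums, and that row was at 61.7 to 73.1 FPKM in knockout and 60.4 to 66.6 FPKM in control libraries. CEBPA, the 1 marker of this list in a row of its own with a mean of at least 1 FPKM, made up most of the sums. It was at 2.44 to 2.82 FPKM in knockout and 2.03 to 2.72 FPKM in control libraries. The other 10 markers in rows of their own went against a monocytic label, while CEBPA did not. The summed levels of the T cell markers went against that label too. The level of the CD68 row cannot be assigned to CD68, so it was not counted either way. Of 6 B cell markers, 1 was above a mean of 1 FPKM (CD79A). CD79A was at 25.2 to 32.2 FPKM in knockout and 35.6 to 43.2 FPKM in control libraries (limma adjusted p = 0.0756). The part of these markers in the results was not tested, and in bulk libraries fewer cells of a type and less RNA per cell cannot be told apart.

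Of the 9 genes 7 were abundant enough to be tested, and none of these 7 changed past the threshold. The test was limma on log2(FPKM + 1) over the 13084 names with a mean of at least 1 FPKM, with p-values adjusted over all of them and a threshold of 0.05. Of the 7 tested members 0 rose and 0 fell. Across all tested names 2.35% passed, with 158 (1.21%) higher and 150 (1.15%) lower in the knockout libraries, or 178 and 277 when libraries were scaled to a common upper quartile. Without adjustment 1 of the 7 members, AKT1, was below 0.05, where 25.1% of all tested names were. SGK1 and PIK3IP1 had means below 1 FPKM and were left out of this test by the filter on low values. The largest ratios between the group means were those of SGK1, at 4.43 times the control level, and of AKT1, at 1.72 times.

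Ordered by the mean over 6 libraries, AKT1 stood highest at 10.4 FPKM, followed by AKT2 at 6.88, PIK3CD at 6.39, PDPK1 at 5.15, INPP5D at 3.32, PIK3R1 at 2.75, PHLPP1 at 1.99, PIK3IP1 at 0.787 and SGK1 at 0.222 FPKM. The ranges over libraries overlapped between neighbours in this order except in 3 places. They did not overlap between PDPK1 and INPP5D, between PHLPP1 and PIK3IP1, or between PIK3IP1 and SGK1. AKT1 was higher than 67.7% of the tested names and PHLPP1 higher than 15.7% of them.

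**Figure D1:**
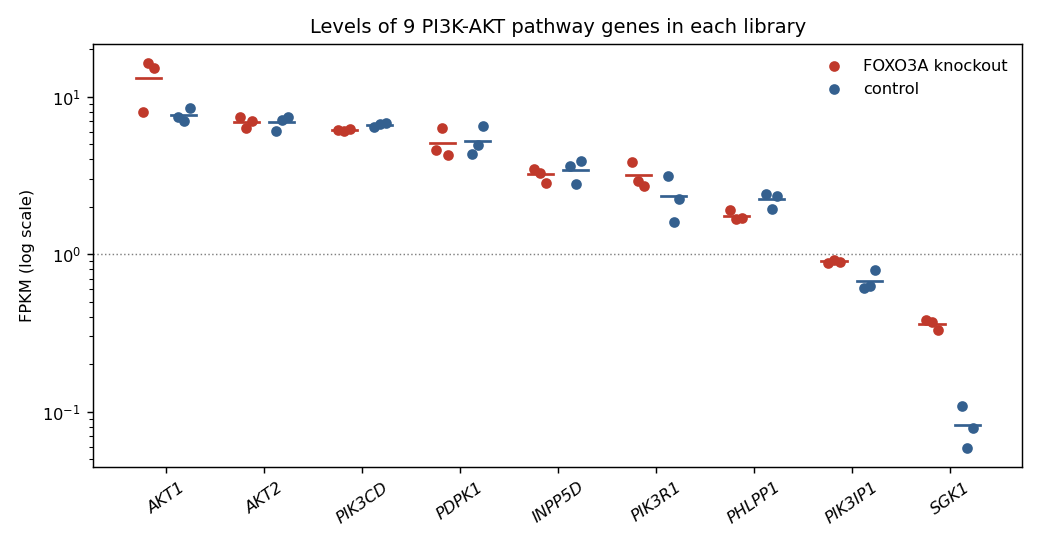
FPKM (log axis) of the 9 genes in each library, with FOXO3A knockout libraries (red) left of control libraries (blue), a short line at each group mean and a dotted line at the filter of 1 FPKM. SGK1 and PIK3IP1 lie below the filter with separate groups, and of the AKT1 values 2 knockout libraries stand above the rest.

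Among the PI3K subunits, PIK3CD encodes the delta catalytic subunit of leukocytes and lies at chr1:9651732-9729114 (GRCh38, plus strand). It was at 6.13, 6.04 and 6.22 FPKM in the knockout libraries and at 6.44, 6.73 and 6.78 FPKM in the control libraries. Every knockout library lay below every control library, by a small margin. Its log2 fold change was −0.10 (SE 0.06, 95% interval −0.26 to 0.06, limma adjusted p = 0.376). The row overlaps antisense genes, of which PIK3CD-AS2 averaged 4.26 ± 0.809 FPKM in knockout and 4.52 ± 0.529 FPKM in control libraries (SD, n = 3 each). CLSTN1, a protein-coding gene on the opposite strand, overlaps it as well and averaged 24.8 ± 1.52 FPKM in knockout and 26.6 ± 1.11 FPKM in control libraries (SD, n = 3 each). No source used here gives the strand setting, so reads of PIK3CD and of these genes cannot be told apart where they overlap. Annotated genes also overlap every other member except PIK3R1, among them 4 for SGK1, 1 for AKT1 and 9 for PDPK1. The same limit holds there.

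PIK3R1 (chr5:68215720-68301821, plus strand) encodes the main regulatory subunit, which stabilises the catalytic subunit and recruits it to phosphorylated receptors. It was at 3.86, 2.92 and 2.73 FPKM in the knockout libraries and at 3.14, 1.60 and 2.24 FPKM in the control libraries. The groups overlapped, because the first control library lay above 2 of the knockout libraries. The log2 fold change was 0.34 (SE 0.19, 95% interval −0.12 to 0.80, limma adjusted p = 0.317). Its annotated transcripts have the lowest mean GC content of the 9 genes, 40.0%, and the log2 fold change was 0.07 (limma adjusted p = 0.763) in a fit on values corrected for GC content and transcript length. Without the first control library it was 0.51 (limma adjusted p = 0.112), without the second 0.18, and with the second left out and the correction −0.016.

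PIK3IP1 encodes a membrane protein that binds the catalytic subunit and inhibits PI3K, and it is known as a brake on T cell activation. Its position is chr22:31281593-31292534 (minus strand). It was at 0.878, 0.921 and 0.896 FPKM in the knockout libraries and at 0.608, 0.630 and 0.791 FPKM in the control libraries. The groups did not overlap, with all knockout libraries above all controls. The ratio of the means was 1.33. In the fit without the filter the log2 fold change was 0.18 (SE 0.07, limma adjusted p = 0.284). At the estimated depth these levels correspond to 13.2 to 15.2 read pairs for each kilobase of transcript in the knockout libraries and 11.6 to 12.7 in the control libraries. The antisense gene PIK3IP1-AS1 overlaps it and averaged 0.220 ± 0.105 FPKM in knockout and 0.119 ± 0.0297 FPKM in control libraries (SD, n = 3 each).

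PIK3IP1 was the 1 member with a full forkhead motif near an annotated start. The search covered the 19 start windows of the 9 members in a RefSeq promoter table (GRCh38.p14), each 250 bases before to 50 bases after the start. The letters TGTTTAC, or GTAAACA on the other strand, stood in 1 of them and in 3.42% of all 35116 windows of the table. The shorter core TGTTT or AAACA, which the longer motif contains, stood in 7 of the 19 and in 44.4% of all windows. The windows of the 2 PIK3IP1 starts overlap each other. Shown first is the single full match with its flanks, the motif in capitals, which begins at base 17 counted from the downstream start, at chr22:31292488, and lies in the annotated 5′ untranslated region. Shown next are the 250 bases before the upstream start, with 2 shorter cores in capitals, since this promoter belongs to a member whose groups did not overlap. SGK1, the other member higher in every knockout library, had no full match and 1 shorter core in its 3 windows. Of the members lower in every knockout library, PIK3CD had 3 shorter cores in 1 window and PHLPP1 had 0, both without a full match. A match is no evidence of binding, and its absence from these windows says nothing about binding elsewhere.
PIK3IP1 site, chr22:31292454-31292483, minus strand: taaagagaggcTGTTTACcagaacagcata
PIK3IP1 upstream of the first start, chr22:31292535-31292784, minus strand: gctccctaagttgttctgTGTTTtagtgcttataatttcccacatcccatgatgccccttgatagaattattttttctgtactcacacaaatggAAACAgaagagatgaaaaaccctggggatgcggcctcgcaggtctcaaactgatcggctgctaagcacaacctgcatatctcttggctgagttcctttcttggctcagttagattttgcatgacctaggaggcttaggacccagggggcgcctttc

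INPP5D encodes SHIP1, the lipid phosphatase of blood cells that removes a phosphate from phosphatidylinositol trisphosphate. Its position is chr2:233059967-233207903 (plus strand). Its level was 3.49, 3.28 and 2.85 FPKM in the knockout libraries and 3.61, 2.79 and 3.89 FPKM in the control libraries. All knockout libraries lay within the range of the controls. A log2 fold change of −0.07 was fitted (SE 0.12, 95% interval −0.36 to 0.23, limma adjusted p = 0.753).

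Among the kinases, PDPK1 encodes PDK1, which phosphorylates the activation loop of AKT and SGK1. Its position is chr16:2537964-2603188 (plus strand). It was at 4.56, 6.30 and 4.27 FPKM in the knockout libraries and at 4.32, 4.95 and 6.52 FPKM in the control libraries. In each group 1 library stood above the others, and the groups overlapped (log2 fold change −0.05, SE 0.18, limma adjusted p = 0.882). The value is uncertain, because the near-identical copy PDPK2P, at 0.879 ± 0.255 FPKM in knockout and 0.984 ± 0.300 FPKM in control libraries (SD, n = 3 each), can share its reads.

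AKT1 (chr14:104769349-104795751, minus strand) encodes the widely expressed form of AKT. It was at 7.95, 16.3 and 15.1 FPKM in the knockout libraries and at 7.46, 6.99 and 8.47 FPKM in the control libraries. The second and the third knockout libraries lay above all controls, while the first lay among them. AKT1 had a log2 fold change of 0.65 (SE 0.25, 95% interval 0.05 to 1.26, limma adjusted p = 0.177). Without the first knockout library it was 0.95 and passed the threshold (limma adjusted p = 0.0340), and over all alternatives the adjusted p ran from 0.0340 to 0.402. The row joins 25 transcripts, of which 5 come from the authors' own assembly, and it has the highest mean GC content of the 9 genes, 61.1%. With values corrected for GC content and length the log2 fold change was 0.68.

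AKT2 (chr19:40230317-40285536, minus strand) encodes the form best known for insulin signalling. It was at 7.44, 6.30 and 6.96 FPKM in the knockout libraries and at 6.04, 7.12 and 7.42 FPKM in the control libraries. The groups overlapped throughout, with a log2 fold change of 0.0097 (SE 0.10, 95% interval −0.23 to 0.25, limma adjusted p = 0.964).

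AKT1 and AKT2 together summed to 15.4, 22.6 and 22.1 FPKM in the knockout libraries and to 13.5, 14.1 and 15.9 FPKM in the control libraries. AKT1 made up 51.7%, 72.1% and 68.5% of this sum in the knockout libraries and 55.3%, 49.6% and 53.3% in the control libraries. The share was above all controls in 2 of 3 knockout libraries, and an exact two-sided permutation test gave p = 0.3 (adjusted p = 0.5 over 5 such shares; 0.1 is the smallest p that 3 against 3 libraries allow). Among the class I catalytic subunits PIK3CD made up 33.3%, 33.9% and 39.4% of the summed FPKM in the knockout libraries and 37.6%, 45.4% and 42.4% in the control libraries (exact permutation p = 0.2, adjusted p = 0.5). PIK3CA, the alpha subunit, made up 24.1%, 23.7% and 22.8% in the knockout libraries and 19.7%, 14.3% and 15.5% in the control libraries (exact permutation p = 0.1, adjusted p = 0.5). Its share was higher in 3 of 3 knockout libraries. All these shares are of values not corrected for GC content, which was 40.4% for PIK3CA and 58.9% for PIK3CD transcripts. PIK3CB and PIK3CG, the beta and gamma subunits, held mean shares of 18.1% and 22.8% in knockout and 18.9% and 22.7% in control libraries.

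**Figure D2:**
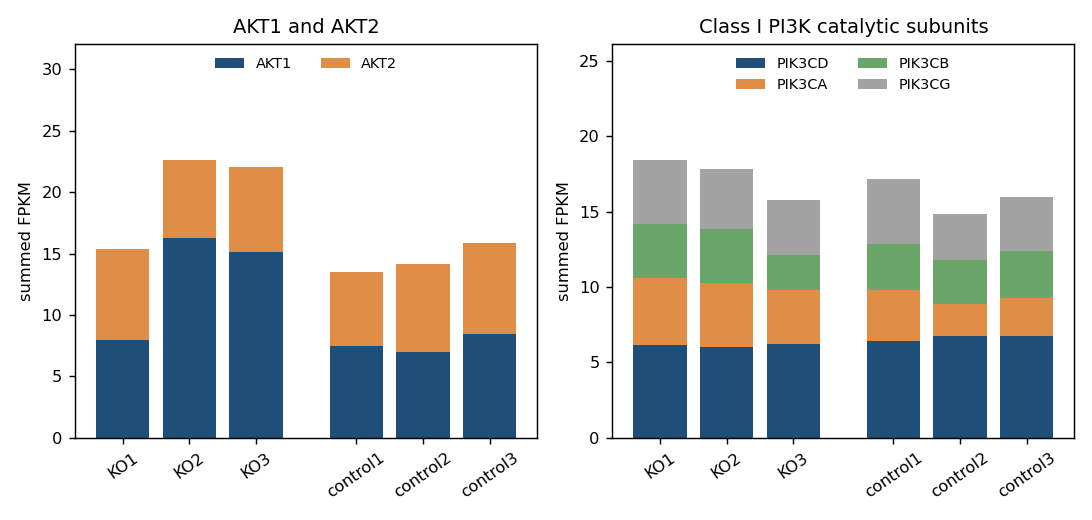
Stacked bars of FPKM in each library for AKT1 and AKT2 (left panel) and the 4 class I PI3K catalytic subunits (right panel), with knockout libraries left of control libraries. The sum of AKT1 and AKT2 is 22.6 and 22.1 FPKM in the second and the third knockout libraries and 15.9 FPKM or less elsewhere, and the PIK3CD block is 6.04 to 6.22 FPKM in the knockout and 6.44 to 6.78 FPKM in the control libraries.

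SGK1 (chr6:134169246-134318112, minus strand) encodes a kinase of the AKT type that is induced by glucocorticoids and phosphorylates FOXO3. It was at 0.383, 0.373 and 0.330 FPKM in the knockout libraries and at 0.108, 0.0590 and 0.0785 FPKM in the control libraries. All knockout libraries lay well above all controls, at a level that is low in both groups. The means were 0.362 ± 0.0280 FPKM in knockout and 0.0818 ± 0.0246 FPKM in control libraries (SD, n = 3 each). Without the filter on low values SGK1 passed the test (difference of 0.33 in log2(FPKM + 1), SE 0.03, limma adjusted p = 0.0227), where 0.799% of 27173 names did. With a pseudocount of 0.1 the log2 fold change was 1.35 and the adjusted p 0.0502, and with any 1 library left out the adjusted p was 0.0574 to 0.0936. The reads behind these values are few, at 5.61 to 5.98 read pairs for each kilobase of transcript in the knockout libraries and 1.19 to 2.05 in the control libraries.

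PHLPP1 (chr18:62715450-62980433, plus strand) encodes a phosphatase that removes the phosphate from the hydrophobic motif of AKT. It was at 1.91, 1.67 and 1.70 FPKM in the knockout libraries and at 2.41, 1.92 and 2.33 FPKM in the control libraries. Every knockout library lay below every control, though the first knockout and the second control library were close. The log2 fold change was −0.22 (SE 0.09, 95% interval −0.45 to 0.0028, limma adjusted p = 0.204). With values corrected for GC content and length it was −0.29 (limma adjusted p = 0.0552). Its relative PHLPP2 had a log2 fold change of 0.00040 (limma adjusted p = 0.999).

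**Figure D3:**
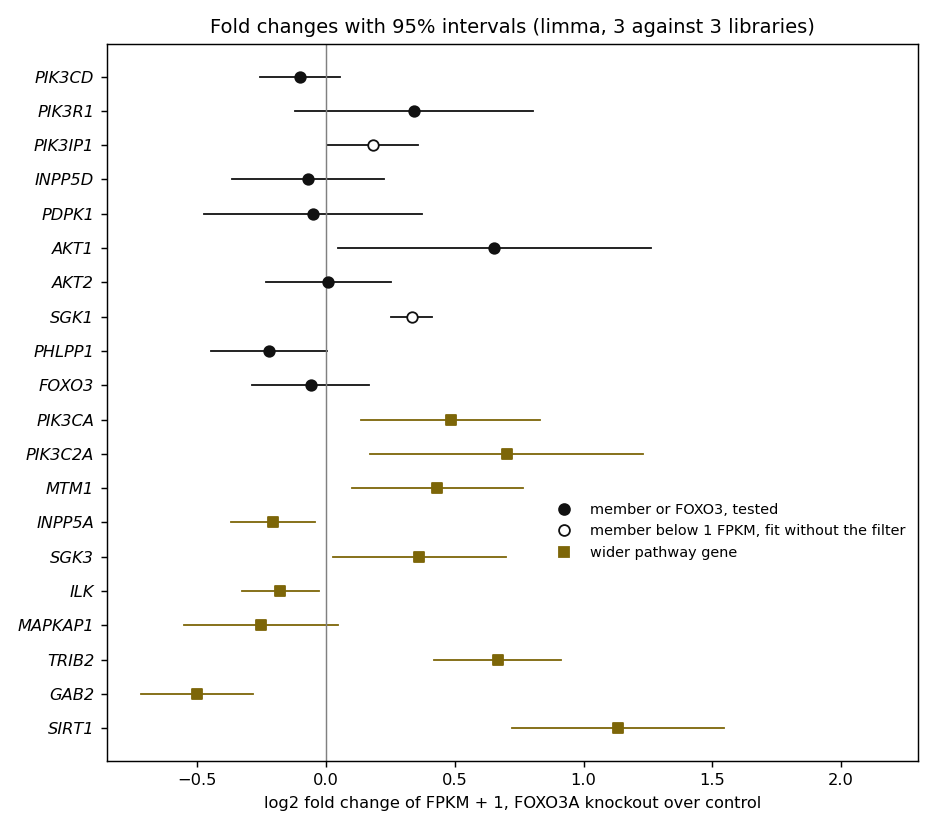
Log2 fold change of FPKM + 1 (knockout over control) with 95% intervals from limma for the 9 genes and FOXO3 (circles) and 10 other pathway genes (squares). Open circles mark SGK1 and PIK3IP1, taken from the fit without the filter. Intervals of the members cross 0 except those of AKT1, PIK3IP1 and SGK1. No filled circle passed the adjusted threshold, and of the squares TRIB2, SIRT1 and GAB2 did. Of the open circles SGK1 passed it in the fit without the filter (limma adjusted p = 0.0227) and PIK3IP1 did not.

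The groups did not overlap in 4 of the 9 members: SGK1 and PIK3IP1 were higher and PIK3CD and PHLPP1 lower in the knockout libraries. Among names above the floor of the table, 22.2% had groups that did not overlap. Knockout libraries lay above all controls in 12.2% of these names. Of the 7 tested members 2 had groups that did not overlap, both with the knockout below, against 31.9% of all tested names with no overlap and 14.7% with the knockout below. Across the tested members 3 were higher and 4 lower. Their median log2 fold change was −0.05, that of all tested names 0.02.

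AKT1 and PHLPP1 had the smallest p among the tested members. Of 8794 other named genes, PDLIM5 (r = 0.994), IL27RA (0.990) and BAG1 (0.990) followed AKT1 most closely over the 6 libraries by Pearson correlation of log2(FPKM + 1). PDLIM5 was at 1.09, 3.11 and 3.09 FPKM in the knockout libraries and at 1.08, 0.789 and 1.33 FPKM in the control libraries, with the first knockout library again among the controls. PTPDC1 (r = 0.996), NFKB1 (0.993) and NOTCH2 (0.993) followed PHLPP1 most closely. Of the 8794 genes, 0.751% exceeded 0.9 for AKT1 and 2.55% for PHLPP1. The genes named are the highest of so many over only 6 libraries, so these figures are descriptions.

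Among 92 other pathway genes with a row, 76 were tested. Of these 2 rose and 1 fell, where 1.21% of all tested names rose and 1.15% fell. The other 73 stayed short of the threshold. Of the 76, 39 were higher and 37 lower, with a median log2 fold change of 0.0025 against 0.02 for all tested names. Without adjustment 18 were below 0.05, or 23.7%, where 25.1% of all tested names were. In 10 of the 76 the row also names other genes.

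TRIB2, a pseudokinase of the Tribbles family that binds AKT and is known to repress FOXO3 in melanoma, rose. It was at 12.1, 11.3 and 11.5 FPKM in the knockout libraries and at 7.69, 5.93 and 7.39 FPKM in the control libraries. The log2 fold change was 0.67 (SE 0.10, limma adjusted p = 0.0313). SIRT1, a deacetylase that acts on FOXO proteins, rose as well, with 9.30, 9.59 and 8.002 FPKM in the knockout libraries and 4.46, 2.54 and 3.81 FPKM in the control libraries. The log2 fold change was 1.13 (SE 0.17, limma adjusted p = 0.0298), and it was 0.93 with values corrected for GC content and length. GAB2, a docking protein that recruits PI3K to receptors, fell, with 2.99, 2.60 and 2.98 FPKM in the knockout libraries and 4.68, 4.02 and 4.66 FPKM in the control libraries (log2 fold change −0.50, SE 0.09, limma adjusted p = 0.0489). All 3 lost the call without any single knockout library or the third control, with adjusted p up to 0.130 for TRIB2, 0.131 for SIRT1 and 0.180 for GAB2. GAB2 also lost it without the first or the second control. With no filter on low values the adjusted p was 0.0576 for TRIB2, 0.0609 for SIRT1 and 0.0826 for GAB2.

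PI3K subunits other than the members had 0 of 11 tested genes past the threshold in limma, with 2 below an unadjusted 0.05. PIK3CA was at 4.44, 4.22 and 3.60 FPKM in the knockout libraries and at 3.38, 2.12 and 2.48 FPKM in the control libraries (limma adjusted p = 0.111). PIK3C2A, a class II enzyme, averaged 2.82 ± 0.569 FPKM in knockout and 1.39 ± 0.650 FPKM in control libraries (SD, n = 3 each; limma adjusted p = 0.121). In both genes all knockout libraries lay above all controls. Phosphoinositide phosphatases other than INPP5D had 0 of 12 past the threshold in limma, with 4 below an unadjusted 0.05. MTM1, myotubularin, averaged 5.37 ± 0.274 FPKM in knockout and 3.77 ± 0.847 FPKM in control libraries (SD, n = 3 each; limma adjusted p = 0.124). INPP5A, a phosphatase of soluble inositol phosphates, averaged 3.82 ± 0.0379 FPKM in knockout and 4.56 ± 0.140 FPKM in control libraries, and every knockout library lay below every control (SD, n = 3 each; limma adjusted p = 0.137). PIK3CA and MTM1 passed the threshold without the first control library, at limma adjusted p of 0.0399 and 0.0466.

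SGK3, a kinase related to SGK1, averaged 1.80 ± 0.232 FPKM in knockout and 1.20 ± 0.371 FPKM in control libraries (SD, n = 3 each; limma adjusted p = 0.177). Genes of mTOR complex 2, which phosphorylates the hydrophobic motif of AKT, and of AKT activators had 0 of 6 past the threshold in limma, with 1 below an unadjusted 0.05. This was ILK, integrin-linked kinase, at 14.9 ± 0.548 FPKM in knockout and 16.9 ± 0.518 FPKM in control libraries (SD, n = 3 each; limma adjusted p = 0.152), lower in every knockout library than in any control. MAPKAP1, a subunit of mTOR complex 2, averaged 16.3 ± 2.64 FPKM in knockout and 19.5 ± 1.22 FPKM in control libraries, with overlapping groups (SD, n = 3 each; limma adjusted p = 0.260). The AKT phosphatases and inhibitors had 1 rise, TRIB2, among 13 tested genes, the receptors and adaptors 1 fall, GAB2, among 10, and the AKT substrates and FOXO partners 1 rise, SIRT1, among 23.

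**Figure D4:**
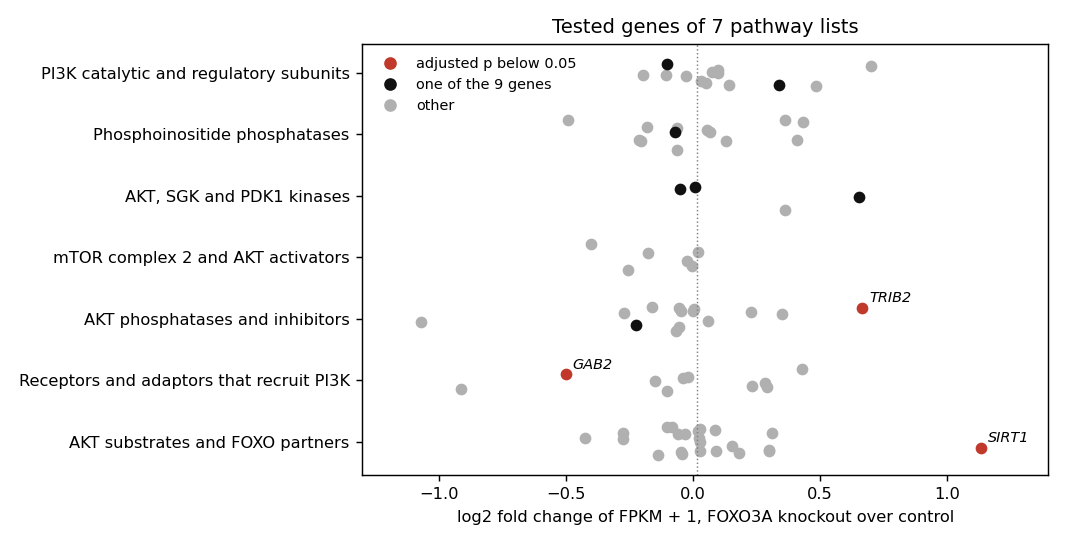
Log2 fold change of FPKM + 1 (knockout over control) of each tested gene in 7 pathway lists, with vertical scatter added for legibility and a dotted line at the median of all tested names. TRIB2, SIRT1 and GAB2 (red) passed the threshold, and the 7 tested members (black) lie between −0.22 and 0.65.

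Outside the naming rule, 3 genes were picked after their values were seen. GRB2, an adaptor of receptor signalling, was at 12.6, 44.4 and 26.5 FPKM in the knockout libraries and at 47.7, 46.4 and 48.2 FPKM in the control libraries (limma adjusted p = 0.221). TRIB3, a Tribbles pseudokinase induced by ATF4, was at 3.51, 2.85 and 3.36 FPKM in the knockout libraries and at 8.63, 14.3 and 3.74 FPKM in the control libraries (limma adjusted p = 0.167). KIT, the stem cell factor receptor, was at 1.66, 1.55 and 1.29 FPKM in the knockout libraries and at 0.872, 0.872 and 0.807 FPKM in the control libraries (limma adjusted p = 0.0557). With values corrected for GC content and length the log2 fold change of KIT was 0.29 (limma adjusted p = 0.123), against 0.43 without the correction. In all 3 the groups did not overlap, which follows from how they were picked. The same held for 20 of the 76 tested other pathway genes and 31.9% of all tested names. The spread was wide among the knockout libraries for GRB2 and among the controls for TRIB3.

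Transcript GC content moved with the fold changes in the wider pathway and in the whole table. Across the 83 tested members and other pathway genes the Spearman rho between log2 fold change and mean transcript GC content was −0.423, and across 13083 tested names it was −0.375, both over genes measured in the same libraries. Across the 7 tested members alone it was 0.25, and so few genes do not settle a direction. When all names were cut into 10 bins by GC content, the lowest bin had a median GC of 39.3% and a median log2 fold change of 0.29, and the highest bin, at 63.2%, one of −0.07. PIK3R1 at 40.0%, PIK3CA at 40.4% and MTM1 at 41.3% GC belong to the low end. The correction for GC content and length gave log2 fold changes of 0.23 for PIK3CA and 0.20 for MTM1, against 0.68 for AKT1 and 0.69 for TRIB2. With it none of the 7 tested members passed the threshold, and in the other pathway genes OCRL and PIK3C3 fell in addition to GAB2. SGK1 and PIK3IP1, with means below 1 FPKM, were not in that fit. The part of GC content in the results was not tested.

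**Figure D5:**
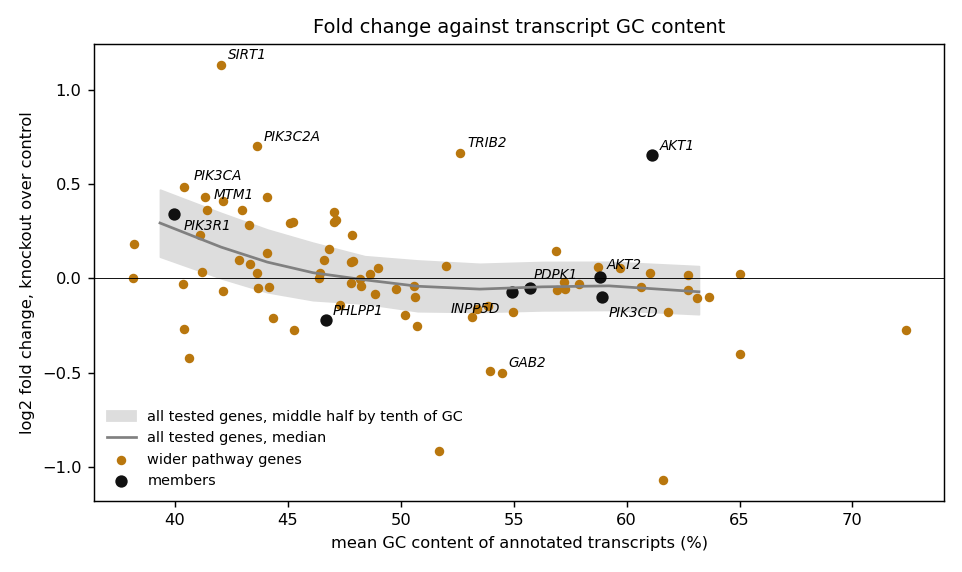
Log2 fold change (knockout over control) against mean GC content of the annotated transcripts for the 7 tested members (black) and 76 other pathway genes (ochre), over the median (grey line) and the quartiles (grey band) of all tested names in 10 bins of GC content. The median of all names is 0.29 in the lowest bin and −0.07 in the highest, and AKT1, TRIB2 and SIRT1 lie far above the band.

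The KEGG pathway of PI3K and AKT signalling in the deposited annotation, looked at after the data were seen, is broader and includes growth factors, integrins and cell cycle genes. It names 396 genes with a row, of which 210 were tested, 75 of them in rows that name other genes too. Among these 3 rose and 2 fell, a share near the 2.35% of all tested names, and the median log2 fold change was 0.01. Without adjustment 34.3% were below 0.05, where 25.1% of all tested names were. FGFR1, a fibroblast growth factor receptor, fell to 0.521 FPKM in knockout libraries, against 1.80 FPKM in control libraries (log2 fold change −0.88, limma adjusted p = 0.00601). GNG7, a G protein gamma subunit, fell to 0.661 FPKM in knockout libraries, against 1.38 FPKM in control libraries (limma adjusted p = 0.0409). PDGFC, a platelet-derived growth factor, rose to 5.28 FPKM in knockout libraries, against 2.91 FPKM in control libraries (limma adjusted p = 0.0245). ITGB7 and CDKN1B were the other rises. Leaving out any 1 library other than the first control ended the call of GNG7 (adjusted p up to 0.148), PDGFC (0.117), CDKN1B (0.127) and ITGB7 (0.0823), and without the filter GNG7 (0.0685) and CDKN1B (0.0623) also missed the threshold in limma.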

How the data were processed

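RNA sequencing of 6 libraries, 3 FOXO3A knock-out and 3 control, was analysed. The authors deposited 1 table of genes whose values are FPKM per the file headers. The submitters' processing notes list hg38 as build and name Bowtie 0.12.9, HTSeq and Cufflinks 2.1.1 without saying which did what. Row identifiers mix 35986 Ensembl genes with 20432 loci of a merged assembly. Names were split at semicolons, 4872 repeats with identical values were dropped and the other rows of a name summed, so a row of several genes enters once under each name. Of 56418 rows, 29 named no gene and were left out. The value 0.0001, found in 60.7% to 62.4% of rows depending on the library, was treated as a floor.

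Depth was estimated from FPKM times length in rows with 1 annotated transcript, where low values fell into even steps: 78.0% to 79.7% of them were whole multiples to within 0.1. By chance 20% would be for a step fixed in advance. The depth was searched for the best fit to these same values, so 20% is not the chance level of that best fit. A step was taken to be 1 aligned base and 282 steps, the most frequent value, a read pair, so read pairs are estimates. A count model was not applied, because whole reads could not be recovered from such steps.

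limma 3.58.1 in R 4.3.3 was fitted to log2(FPKM + 1) with 1 term for group, allowing the variance to follow the mean level. Tests were two-sided, with Benjamini-Hochberg adjustment. For genes with low values this scale makes fold changes too small. Coordinates and transcript lengths are from GENCODE 29 (GRCh38), which held 99.0% of the transcript identifiers. The correction for GC content and length removed a trend fitted in each library with natural splines of 4 degrees of freedom for each. The fit was checked on simulated data with independent noise and no trend with GC content, so that check does not cover such a trend or technical replicates.

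Named genes were the 9 members, FOXO3, the wider pathway genes past the threshold, and otherwise the up to 2 of smallest p in each list. Results of 3 listed genes are not reported here, and the counts of other pathway genes leave them out. For the 2 members of smallest p, the 3 most correlated genes were also named. The members and lists were chosen with earlier results of these data known. Python 3.11.15 and pandas 2.3.3 made the tables.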

Additional observations from a re-analysis of the deposited data

How the results depend on the processing

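Over the 6 fits that leave out 1 library each, the count of names past the threshold ran from 75 to 998 (308 with all libraries; 998 without the first control), that of members from 0 to 1 and that of other pathway genes from 0 to 7 (7 without the first control). The member called without the first knockout library was AKT1, and without the filter on low values 1 member was called, SGK1. Other pathway genes had 0 calls with no filter (also with a pseudocount of 0.1) and 5 with values corrected for GC content and length, where 822 names passed in all. Replicate numbers were not taken to pair libraries across groups, since for equal numbers the correlations of their deviations from the group means were 0.097, −0.044 and 0.017 and not every library correlated best with its own number. With the replicate number as a block, 33 names and 0 other pathway genes passed the threshold, and the 7 tested members stayed at 0. Some fold changes reversed: PIK3R1, at 0.34 with all libraries, to −0.016 with the GC correction and the second control left out, and AKT2, near 0 throughout, to −0.028 with upper-quartile scaling, to −0.039 without the first knockout and to −0.068 without the first control. INPP5D was 0.0062 without the third control, PDPK1 0.0013, 0.040 and 0.088 without the first knockout, the third knockout or the third control, and FOXO3 0.00027 without the third knockout. With single libraries left out, log2 fold changes ran from 0.18 to 0.51 for PIK3R1, from −0.18 to 0.0062 for INPP5D, from −0.19 to 0.088 for PDPK1, from −0.068 to 0.066 for AKT2 and from −0.12 to 0.00027 for FOXO3. The causes were not tested. The alternatives that kept rows of several genes as loci, combined no filter with a pseudocount of 0.1, combined the GC correction with a left-out control, or left out libraries for SGK1 and PIK3IP1 were chosen after seeing the data. With 3 libraries a group, changes smaller than the intervals given were not detectable, and for SGK1 the reads per library are too few for a firm fold change.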
